A study of Homo sapiens with 3 samples.

Results

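The 5 compact tRNA gene clusters examined here lie on human chromosomes 5, 7, 14, 16 and 17 and were followed in double-stranded RNA (dsRNA) from cells with and without depletion of DICER. The members are all dsRNA regions that overlap, in hg19, chr7:148990000-149400000, chr5:180500000-180660000, chr14:21070000-21160000, chr16:3195000-3250000 or chr17:8020000-8135000, leaving out the U8 snoRNA gene SNORD118 at chr17:8076400-8077000. The rule uses position and no summit, though the windows were drawn with earlier results of these data known. They number 262 of 271645 regions: 81 on chromosome 7, 39 on chromosome 5, 22 on chromosome 14, 30 on chromosome 16 and 90 on chromosome 17. HEK 293, a line derived from human embryonic kidney, was the source of 3 libraries, and each stands alone in its group. They were dsRNA from wild-type cells, dsRNA from Dicer knockdown cells, and a DICER chromatin immunoprecipitation (ChIP-seq) from wild-type cells. Here dsRNA means the total RNA left after digestion with nuclease T1, which cuts single-stranded RNA. The labels do not say how the knockdown was made or whether the cultures were separate, and no value for DICER1 was used, so the depletion was not checked.

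Transfer RNAs carry amino acids to the ribosome, and each reads a codon through its 3-base anticodon. Their genes are short, are transcribed by RNA polymerase III from promoters inside the gene, and often lie in clusters with many near-identical copies. The transcript folds into stacked stems, and its ends are trimmed by RNase P and RNase Z. DICER is an RNase III enzyme that releases short RNAs from double-stranded precursors such as microRNA hairpins. In a gene symbol such as TRP-TGG3-2, the letter after TR is the amino acid as a single letter and the next letters are the anticodon. The number that follows stands for 1 mature sequence, here called the transcript number, and the last number is the gene copy.

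Each region has a summit in each library, the whole-number height of its read coverage. Summits are printed as deposited. Wild type and knockdown were told apart by sheet names in the deposited workbook (normal and induced), and every direction given here rests on that reading. A fold is the knockdown summit over the wild-type summit after knockdown was scaled by 0.958, so that both libraries have the same sum of summits, with a pseudocount of 1 added. A fold below 1 is a lower summit in knockdown. With 1 library a group there is no replicate error and no p-value: each fold compares 2 libraries, and a difference of 2-fold or more is counted without a test. Intervals given for medians are 95% intervals over regions, which are not replicates. Copies of the same tRNA may share reads, and the placing of reads with several matches is not described in the sources used here. Fewer copies of an RNA and less of it in double-stranded form cannot be told apart.

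Which tRNA gene lies at which region was worked out from the spacing of the genes in the RefSeq table, which is of GRCh38.p14. All 81 tRNA genes of these windows lay on a region. Of these, 79 lay on 78 regions whose mean summit over both libraries was at least 100, since TRV-CAC1-2 and TRL-AAG1-1 on chromosome 5 share 1 region. The other 2, TRK-CTT8-1 and TRP-TGG3-5 on chromosome 16, lay on lower regions. Of the 85 members with a mean summit of 100 or more, 78 were tRNA gene regions. The placement was chosen to put the most genes on such regions, so this share is no independent support for the label. Of the 7 others, 1 lay on a tRNA pseudogene and the rest had no tRNA gene name placed on them. The remaining 177 members were low, and 149 of all 262 had a combined summit under 20.

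The files and tables given here hold the sequence of few of these genes. RefSeq's promoter windows, from 250 bases before to 50 after a gene's start, contain 3 of the 81 tRNA genes because a longer gene starts just beside them. These 3 are shown because they are the only ones so held, and not for their values. TRP-TGG3-2 and TRP-TGG3-5 are copies of 1 proline tRNA whose summits lie furthest apart. TRT-TGT6-1, a threonine gene, had the lowest fold of the tRNA genes on chromosome 5. Each is printed 5′ to 3′ with the gene in capitals and 50 bases before and 30 bases after it in lower case. All are from GRCh38.p14, whose coordinates differ from those of hg19.
TRP-TGG3-2, beside ANG, chr14:20683966-20684117, plus strand: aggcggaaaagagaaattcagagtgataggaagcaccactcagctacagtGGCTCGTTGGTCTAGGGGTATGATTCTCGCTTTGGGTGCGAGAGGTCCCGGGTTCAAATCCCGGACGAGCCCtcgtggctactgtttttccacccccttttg
TRP-TGG3-5, beside OR1F1, chr16:3188044-3188195, plus strand: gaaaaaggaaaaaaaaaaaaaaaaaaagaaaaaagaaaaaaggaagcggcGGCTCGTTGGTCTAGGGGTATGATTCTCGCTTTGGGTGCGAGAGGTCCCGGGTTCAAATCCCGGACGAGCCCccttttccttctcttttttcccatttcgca
TRT-TGT6-1, beside TRIM7-AS2, chr5:181191657-181191808, minus strand: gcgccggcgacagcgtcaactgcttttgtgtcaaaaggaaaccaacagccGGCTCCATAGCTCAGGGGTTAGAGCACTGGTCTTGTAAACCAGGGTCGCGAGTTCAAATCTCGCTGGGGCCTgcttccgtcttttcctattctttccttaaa

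The strand was taken from where the anticodon falls, at bases 33 to 35 of the proline genes and 34 to 36 of the threonine gene. Over their 72 bases the proline copies had 0 differences, while the flanks had 15 of 50 bases before the gene and 10 of 30 after it in common, position by position. The run TTTT, where RNA polymerase III stops, first began at base 13 after the end of TRP-TGG3-2, at base 3 after TRP-TGG3-5 and at base 10 after TRT-TGT6-1. Of all 35116 RefSeq promoter windows, 53.8% hold TTTT at any place on the strand of the gene they belong to. For TRT-TGT6-1 that is the opposite strand. This share does not show how often TTTT begins so soon after the end of a gene. TATAAA, searched on both strands, was in none of these 3 windows and in 11.5% of all. For the A box, a promoter motif of RNA polymerase III genes, a fixed pattern was searched. The pattern was also in none of the 3 and in 0.76% of all. An A box that differs from the pattern would be missed, so its absence does not show that these genes lack an A box. Like TTTT, the pattern was searched only on the strand of the gene a window belongs to. For TRT-TGT6-1 the search therefore did not cover the strand of the tRNA gene.

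Another sequence shown lies on chromosome 17. The serine gene TRS-GCT4-3 is followed by MIR4521, an annotated microRNA gene, and the start of the hairpin overlaps the last 3 bases of the tRNA gene in the RefSeq table. The mature miR-4521, in capitals here, starts at the next base, with 0 bases between.
MIR4521 hairpin, chr17:8186945-8187004 in GRCh38.p14, plus strand: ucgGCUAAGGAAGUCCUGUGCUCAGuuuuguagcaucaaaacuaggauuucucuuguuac

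The clusters differ in what they encode and how tightly. Chromosome 7 holds 18 tRNA genes over 381 kb, of which 17 are for cysteine and 1 for serine, with a median gap of 17729 bp between tRNA gene regions. Chromosome 16 has the shortest span, with 12 regions over 41.4 kb and a median gap of 1973 bp, and encodes lysine, proline and arginine tRNAs. TRK-CTT8-1 and TRP-TGG3-5, on lower regions, also lie inside this span but were left out of its gaps. Chromosome 14 has 14 regions over 74.8 kb for proline, leucine, threonine and tyrosine. Chromosome 5 has 16 regions over 125 kb for 6 amino acids, mostly valine and leucine. Chromosome 17 is the most mixed, with 18 regions over 108 kb for 11 amino acids and 14 anticodons. Its genes sit in tight groups: 12 of its 17 gaps were under 1 kb, against 0 of 17 on chromosome 7, and its median gap of 447 bp was the smallest of the 5 clusters.

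**Figure D1:**
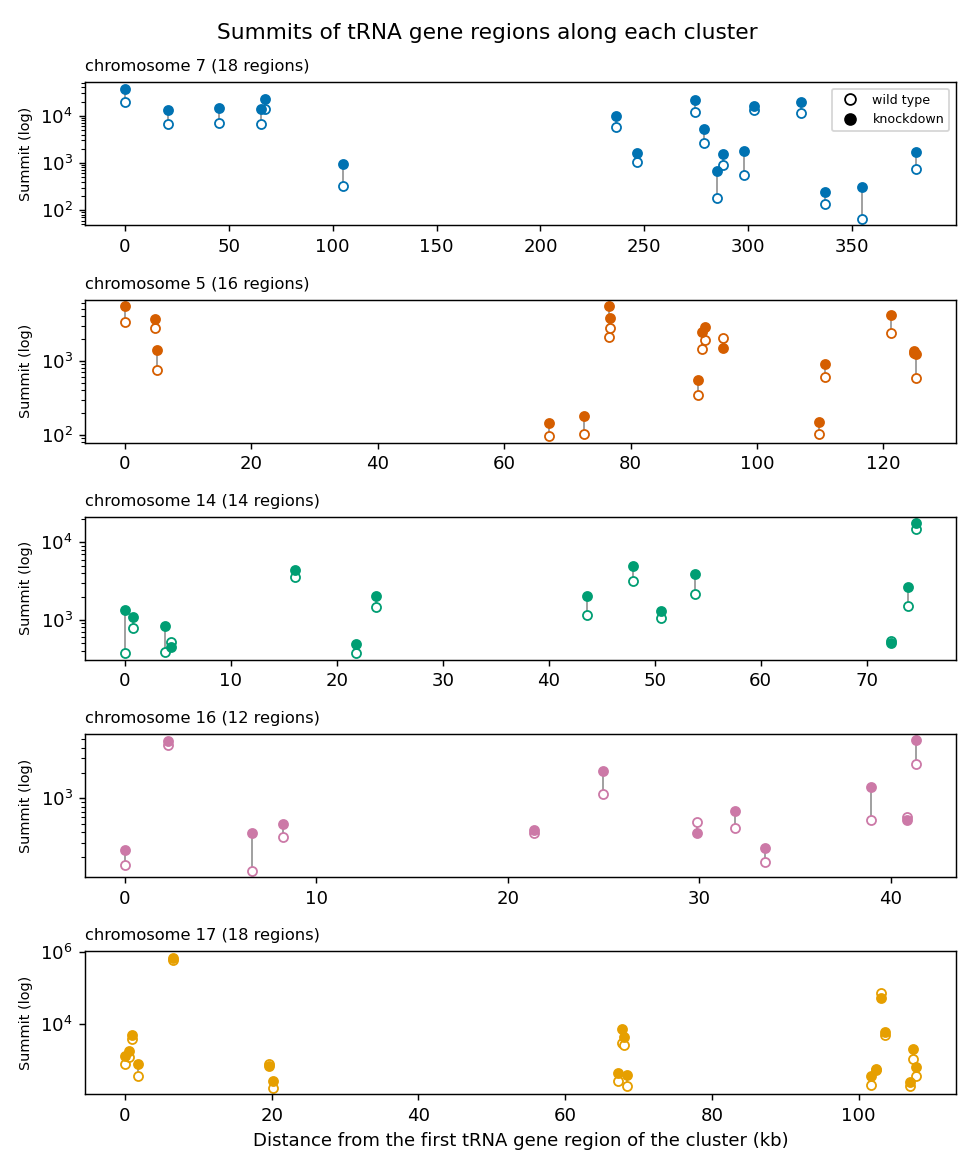
Summits of tRNA gene regions (vertical log axis, coverage height) by distance in kb from the first tRNA gene region of each cluster, with open points for wild type and filled points for knockdown. Genes on chromosome 17 sit in tight groups, and 1 of them, at 610303 in wild type, stands far above all others.

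Signal in each cluster lay almost wholly in its high regions. Members with a mean summit of 100 or more made up 98.4% to 99.9% of the summed wild-type summits of each cluster. This is not particular to the clusters, since over the whole series such regions made up 97.8%. The summed summits were 704315 in wild type and 788320 in knockdown on chromosome 17, 105462 and 189992 on chromosome 7, 38612 and 49805 on chromosome 14, 22737 and 35634 on chromosome 5, and 11739 and 16992 on chromosome 16. A single gene set the sum on chromosome 17. The glycine gene TRG-GCC2-6 (chr17:8029035-8029194) reached 610303 in wild type and 702729 in knockdown, 1.10-fold, and held 86.7% of the cluster's wild-type sum. Without it, the summed fold of the chromosome 17 cluster went from 1.07 to 0.872. Most of the sum then left was the aspartate gene TRD-GTC2-11, with 72658 and 52650, 0.694-fold. The value of 0.872 thus does not describe most genes of the cluster: 16 of its 18 tRNA gene regions were higher in knockdown. On the other clusters the highest member held 14.6% to 38.3% of the wild-type sum.

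Nearly all tRNA gene regions were higher in knockdown. Of the 85 members with a mean summit of 100 or more, 77 were higher, 15 of them at least 2-fold, and 0 were at least 2-fold lower. Among all 4603 regions at this level, 41.2% were higher in knockdown, 7.54% at least 2-fold, and 8.73% were at least 2-fold lower. The median log2 ratio of the 78 tRNA gene regions was 0.66 (0.52 to 0.74), a fold of 1.58, while that of all 4603 regions was -0.14. The higher members numbered 77 unscaled, 85 of 85 when scaled to the median ratio and 82 when the sums used for scaling omitted the highest 1%. Of all 4603 regions, 44.9%, 76.2% and 72.9% were higher under those scalings. Scaling to the median ratio moves every log2 ratio up by about 0.55, and also moves the median of all regions at this level to 0.41. Taken by level, 33 of the 38 members with a mean summit of 100 to below 1000 were higher, against 36.8% of all regions there. Their median log2 ratio was 0.56, that of all regions -0.21. At 1000 to below 10000, 35 of 37 were higher, against 53.1% (medians 0.67 and 0.05). At 10000 or more, 9 of 10 were higher, against 48.7% (medians 0.69 and -0.02).

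**Figure D2:**
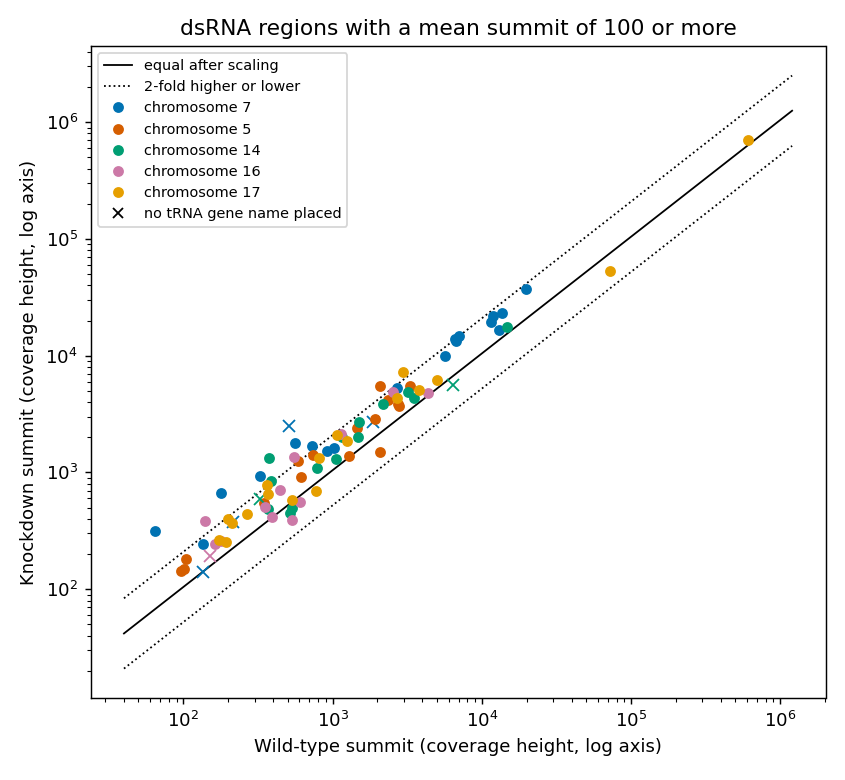
Knockdown against wild-type summit (both log axes, coverage height) for the 85 members whose mean summit was at least 100, coloured by cluster, with crosses where no tRNA gene name was placed. The solid line marks equal scaled summits and the dotted lines 2-fold, and 77 points lie above the solid line.

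Set beside one another, the clusters had tRNA medians in the order chromosome 7, 17, 5, 16 and 14. The median log2 ratio was 0.88 (0.69 to 1.15, 18 regions) on chromosome 7, 0.59 (0.25 to 0.77, 18 regions) on chromosome 17 and 0.56 (0.41 to 0.76, 16 regions) on chromosome 5. It was 0.50 (0.03 to 0.88, 12 regions) on chromosome 16 and 0.40 (0.20 to 0.78, 14 regions) on chromosome 14. The intervals of all 5 overlap, so the order is a description and neighbours in it do not separate beyond their spread. Higher summits in knockdown were seen at 18 of 18 tRNA gene regions on chromosome 7, 16 of 18 on chromosome 17, 15 of 16 on chromosome 5, 10 of 12 on chromosome 16 and 12 of 14 on chromosome 14. By 2-fold or more they numbered 6, 2, 2, 2 and 2 in that order. With 1 value for each transcript number in place of each region, the medians were 0.85, 0.54, 0.56, 0.49 and 0.33.

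**Figure D3:**
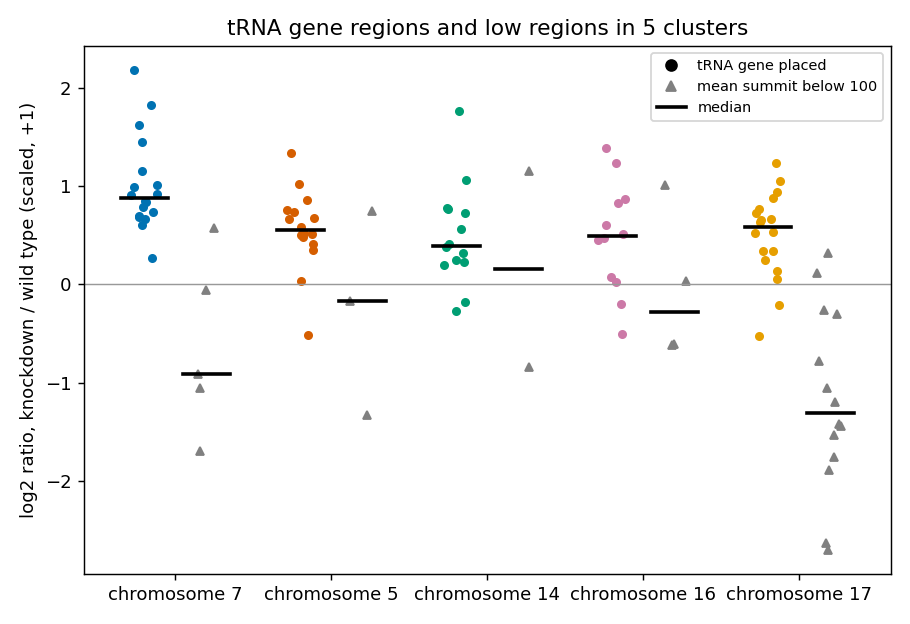
Scaled log2 ratio of knockdown to wild type (vertical axis) for tRNA gene regions (coloured points) and for members with a mean summit below 100 and a combined summit of 20 or more (grey triangles) in each cluster, with bars at the medians. Medians of the tRNA gene regions run from 0.40 to 0.88, and the low members of chromosome 17 have a median of -1.31.

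Chromosome 7 is a cysteine cluster, and all 17 cysteine regions were higher in knockdown, with folds from 1.20 to 4.56. The highest, TRC-GCA1-1 (chr7:149007255-149007346), reached 19763 in wild type and 37293 in knockdown, 1.81-fold. TRC-GCA10-1 (chr7:149074620-149074701) had 13649 and 23062, 1.62-fold. TRC-GCA15-1 (chr7:149281791-149281893) had 11806 and 22047, 1.79-fold. Over all 13 cysteine copies with a mean summit of 1000 or more, folds ran from 1.20 to 2.23. The lowest of these was TRC-GCA19-1 (chr7:149310175-149310268), with 13072 and 16435, 1.20-fold. TRC-GCA9-2 and TRC-GCA9-3, which share a transcript number and lie on either side of the widest gap of 131 kb, had 6702 and 13296 (1.90-fold) and 11460 and 19338 (1.62-fold). The 13 cysteine copies with a mean summit of 1000 or more had a median fold of 1.79, and the 4 below it had 3.12. Both TRC-GCA21-1 (chr7:149361893-149362085), with 65 in wild type and 313 in knockdown, and TRC-GCA23-1 (chr7:149292229-149292397), with 179 and 668, were among these low copies, at 4.56-fold and 3.56-fold. TRC-GCA12-1, also low with 135 and 244, had 1.73-fold, and the remaining low copy, TRC-GCA11-1, had 324 and 926, 2.73-fold. The 1 serine gene, TRS-AGA5-1 (chr7:149305445-149305547), had 556 and 1800, 3.10-fold.

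Chromosome 7 also held 4 regions of this level without a tRNA gene name. The highest fold of all 85 was among them: chr7:149300708-149300824 reached 509 in wild type and 2496 in knockdown, 4.69-fold. Another, at chr7:149325217-149325343, had 1857 and 2729, 1.41-fold, and a region at chr7:149255106-149255214 had 216 and 374, 1.66-fold. At the last, chr7:149053760-149053833, the placement puts the tyrosine tRNA pseudogene TRY-GTA11-1. It reached 135 without and 141 with the knockdown, 1.00-fold, which was the lowest fold of the cluster at this level.

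On chromosome 5, the folds of valine CAC genes were above those of the leucine genes paired with them. TRV-CAC1-4 (chr5:180600628-180600734) reached 2083 in wild type and 5506 in knockdown, 2.53-fold, while its neighbour TRL-AAG1-3 (chr5:180600769-180601151) had 2758 and 3839, 1.33-fold. The same pair is repeated in the cluster. TRV-CAC1-3 (chr5:180529151-180529348) had 744 and 1414, 1.82-fold, and TRL-AAG1-2 (chr5:180528815-180529109) beside it had 2773 and 3707, 1.28-fold. In the pair that shares 1 region, TRV-CAC1-2 with TRL-AAG1-1 (chr5:180524046-180524581), summits were 3309 and 5522, 1.60-fold, between the values of the separate valine and leucine regions. The remaining copy, TRV-CAC1-5 (chr5:180649187-180649498), had 587 and 1252, 2.04-fold. Valine genes with the other anticodon, AAC, were lower in fold, between 1.42 and 1.69 at 4 regions.

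A single gene of the chromosome 5 cluster was lower in knockdown. The threonine gene TRT-TGT6-1 (chr5:180618621-180618783), whose sequence is printed above, reached 2066 in wild type and 1506 in knockdown, 0.698-fold. Other genes with this anticodon lie on chromosome 14. TRT-TGT3-1 (chr14:21081880-21082049) had 515 and 447, 0.832-fold, and TRT-TGT5-1 (chr14:21149826-21149994) had 536 and 496, 0.886-fold. TRT-TGT4-1 (chr14:21099273-21099408) went the other way with 369 and 483, 1.25-fold. The 3 lower ones were lower both scaled to the sums and unscaled. Scaled to the median ratio all 4 were above 1, and with sums that omit the highest 1%, 3 were, with TRT-TGT6-1 at 0.982. The 3 threonine regions of chromosome 17, with anticodon AGT, had folds of 1.26 to 1.56. Over both clusters, genes for threonine TGT had the lowest median fold, 0.859, of all anticodons with 2 or more regions.

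On chromosome 14 the highest region was the proline gene TRP-TGG3-2 (chr14:21152137-21152272), with a wild-type summit of 14788 and a knockdown summit of 17699, 1.15-fold. It lies beside ANG, the gene for the ribonuclease angiogenin, which is known to cut tRNAs in their anticodon loop. The next region, chr14:21147554-21147684, had no tRNA gene name and had 6424 and 5626, 0.839-fold (1.23-fold when scaled to the median ratio and 1.18-fold without the highest 1%). The other region of this level without a tRNA gene name had 327 and 587, 1.72-fold. All 5 tyrosine genes of the 5 clusters lie here, and each was higher in knockdown. TRY-GTA4-1 (chr14:21125442-21125747) had 3191 and 4916, 1.48-fold. The 3 copies of transcript number TRY-GTA5 were close to each other, with folds of 1.66, 1.71 and 1.72, while TRY-GTA7-1 (chr14:21128099-21128228) had 1055 and 1294, 1.17-fold. The tyrosine genes are longer than most, 89 or 94 bp in the RefSeq table, and human tyrosine tRNA genes are known to carry an intron.

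Proline genes are spread over 4 of the clusters, so a comparison of copies across loci is possible. Of the proline genes, those with anticodon AGG had the highest folds. TRP-AGG2-5 (chr14:21077485-21077600) reached 373 in wild type and 1328 in knockdown, 3.40-fold, and TRP-AGG2-6 (chr14:21081313-21081652) had 385 and 840, 2.09-fold. On chromosome 16, TRP-AGG2-8 (chr16:3239604-3239713) had 551 and 1363, 2.37-fold, TRP-AGG2-7 (chr16:3232533-3232730) had 445 and 707, 1.52-fold, and TRP-AGG1-1 (chr16:3241967-3242086) had 2535 and 4861, 1.84-fold. Genes with anticodon TGG, at 5 regions on 3 chromosomes with a mean summit of at least 100, lay between 1.15-fold and 1.44-fold, and the low copy TRP-TGG3-5 had 1.03-fold. Genes with anticodon CGG had 1.02-fold and 1.19-fold, at TRP-CGG1-2 (chr16:3222024-3222137), with 393 and 419, and TRP-CGG1-3 (chr17:8126066-8126260), with 4983 and 6185. The folds of AGG genes thus did not overlap those of TGG or CGG genes on any chromosome, while those of TGG and CGG genes did overlap. Lack of overlap was common here and not particular to AGG genes. Of the 6 pairs of anticodons for the same amino acid, each with 2 or more regions, 5 did not overlap. These groups are small and were compared after the values were known, so this is a description.

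**Figure D4:**
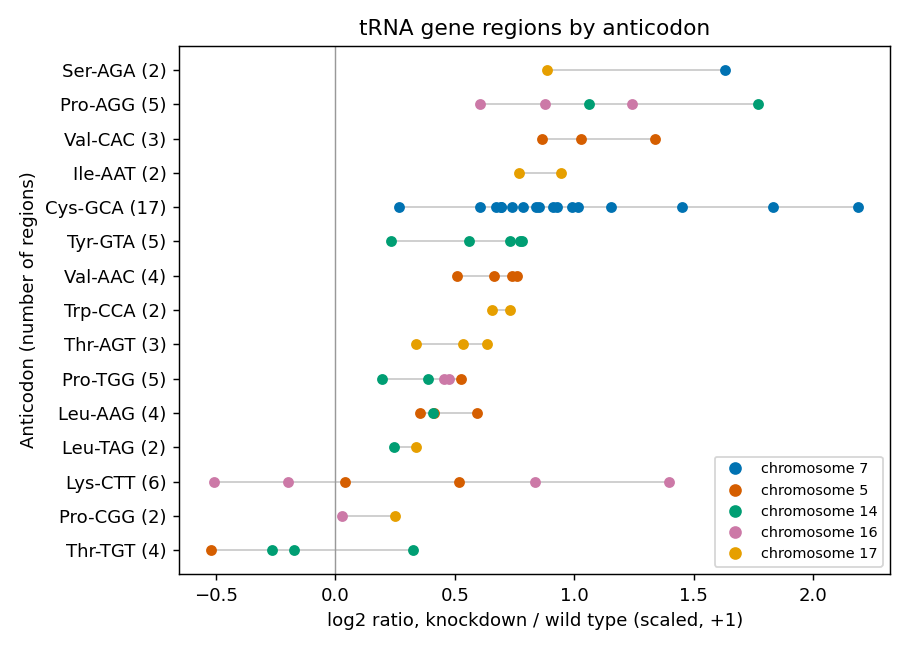
Scaled log2 ratio of knockdown to wild type (horizontal axis) for tRNA gene regions grouped by anticodon, for anticodons with 2 or more regions, coloured by cluster and sorted by median, with grey lines from the lowest to the highest region. Threonine TGT is at the bottom with a median of -0.22, and proline AGG, near the top, has a median of 1.06.

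Copies with 1 mature sequence differed in level by very different amounts. The 5 proline copies of transcript number TRP-TGG3 had wild-type summits of 14788 on chromosome 14, 1927 on chromosome 5 and 351, 178 and 82 on chromosome 16. That is a range of 180-fold in wild type and 201-fold in knockdown. Their folds were 1.15, 1.44, 1.37, 1.39 and 1.03 in the same order. The highest and the lowest, TRP-TGG3-2 and TRP-TGG3-5, are the 2 genes printed above, which do not differ within the gene. Over the 11 sets of copies at a mean summit of at least 100, the highest copy of a set was 2.15-fold above the lowest at the median and 74.3-fold at most, by mean summit. The log2 ratios within a set spanned a median of 0.25 and at most 1.16. The widest span was in TRP-AGG2, from 1.52-fold to 3.40-fold, though its copies were within 1.66-fold of each other in level. The part of reads shared between copies in these values was not tested.

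**Figure D5:**
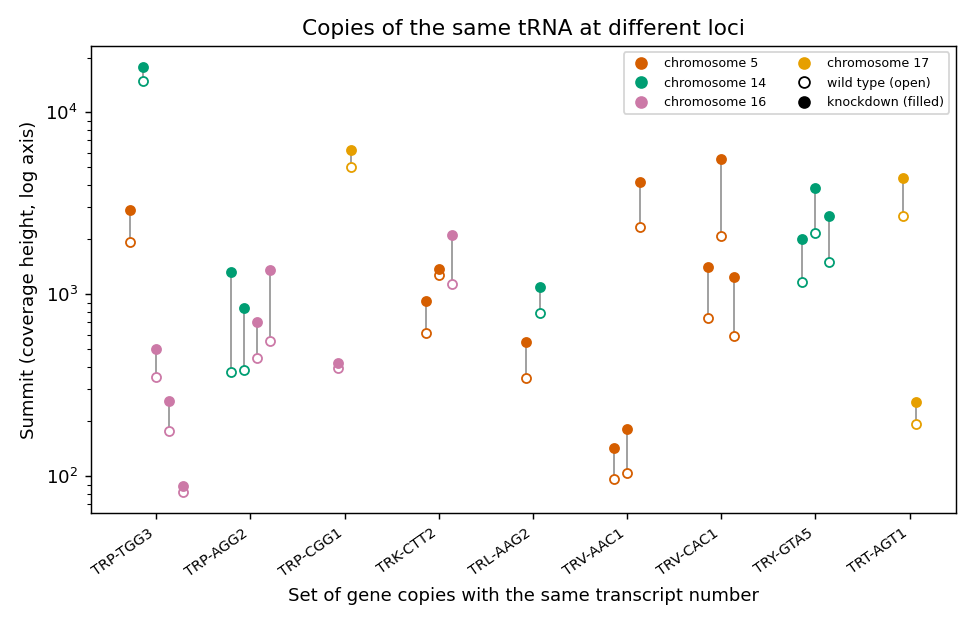
Summits (vertical log axis, coverage height) of each gene copy for sets that share a transcript number, open for wild type and filled for knockdown, coloured by cluster, without TRC-GCA9 and TRL-AAG1. The 5 TRP-TGG3 copies run from 82 to 14788 in wild type.

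Lysine genes with anticodon CTT, on chromosomes 5 and 16, went both ways. TRK-CTT3-1 (chr16:3207298-3207512) reached 140 in wild type and 386 in knockdown, 2.63-fold, which was the highest fold of the cluster's regions at a mean summit of at least 100. TRK-CTT5-1 (chr16:3230542-3230620) had 533 and 391, 0.703-fold, the lowest of those regions. TRK-CTT4-1 (chr16:3241476-3241590) had 609 and 555, 0.873-fold. Scaled to the median ratio these were 1.03-fold and 1.28-fold, so their direction rests on the scaling. The 3 copies of transcript number TRK-CTT2 had 610 and 913 at TRK-CTT2-2 (1.43-fold), 1284 and 1379 at TRK-CTT2-3 (1.03-fold), both on chromosome 5, and 1142 and 2129 at TRK-CTT2-5 on chromosome 16 (1.78-fold). The highest region of chromosome 16 was the arginine gene TRR-CCT3-1 (chr16:3202893-3203124), with 4355 and 4790, 1.05-fold. The 1 region of this level without a tRNA name, chr16:3243924-3244029, had 152 and 191, 1.20-fold.

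On chromosome 17 the serine gene followed by MIR4521 had the highest fold of the tRNA genes. TRS-GCT4-3 (chr17:8090153-8090383) reached 2961 in wild type and 7275 in knockdown, 2.35-fold. Its region was 230 bp wide in wild type, while the tRNA gene and the microRNA hairpin together span 139 bp, and the files do not say where in a region its summit lies. Next were the arginine gene TRR-TCT2-1 (chr17:8024222-8024343), with 361 and 786, 2.08-fold, and the isoleucine gene TRI-AAT5-5 (chr17:8090898-8091271), with 198 and 399, 1.93-fold. The aspartate gene TRD-GTC2-11 (chr17:8125530-8125657) was lower, with 72658 and 52650, 0.694-fold, and the serine gene TRS-CGA1-1 (chr17:8042135-8042294) had 772 and 696, 0.864-fold. Scaled to the median ratio these 2 genes were at 1.01-fold and 1.26-fold. A further serine gene here, TRS-AGA2-6 (chr17:8129897-8130033), had 1076 and 2078, 1.85-fold, next to 3.10-fold for TRS-AGA5-1 on chromosome 7. Leucine TAG genes were close on both of their chromosomes: TRL-TAG1-1 (chr17:8023438-8023740) had 3820 and 5041, 1.26-fold, and TRL-TAG2-1 (chr14:21093508-21093866) had 3524 and 4369, 1.19-fold. The microRNA genes MIR6883 on chromosome 17 and MIR4638 on chromosome 5 lay on no region.

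The low members were mostly lower in knockdown, at a share like that of all regions of their level. Of the 28 members with a mean summit below 100 and a combined summit of 20 or more, 21 were lower, against 75.2% of all 31273 regions of that level, and the median log2 ratio was -0.81, against -0.60. At least 2-fold lower were 12, against 34% of all, and 2 were at least 2-fold higher, against 4.71%. These 28 include the tRNA genes TRK-CTT8-1 (37 and 25, 0.656-fold) and TRP-TGG3-5 (82 and 88). Scaled to the median ratio, 11 of the 28 were higher, against 45.6% of all, and the medians were -0.30 and -0.09. With every level together, 113 members had a combined summit of 20 or more, of which 84 were higher in knockdown, against 26.9% of all 35876 such regions. At least 2-fold higher were 17 and at least 2-fold lower 12, against 5.07% and 30.8%. Chromosome 17 held 9 of the 12. The placement puts 8 of its low members on AURKB, the gene for the mitotic kinase Aurora B, which lies between tRNA groups. All 8 were lower in knockdown, 7 of them by 2-fold or more, with wild-type summits of 20 to 103, knockdown summits of 7 to 31 and a median fold of 0.370. Of the 6 other low members of chromosome 17, 4 were lower, 2 of them by 2-fold or more, at HES7 (18 and 2) and CTC1 (29 and 4). The highest on AURKB, chr17:8108057-8108422, had 103 and 31, 3.39-fold lower, and the next, chr17:8110410-8110759, had 81 and 22, 3.72-fold lower. Scaled to the median ratio 7 of the 8 were still lower, 3 of them by 2-fold or more, against 19.9% of all regions of that level. AURKB was singled out after its values were seen.

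The regions extended beyond the genes they cover. Over the 77 regions with 1 tRNA gene, the width beyond the gene had a median of 63 bp in wild type and 68 bp in knockdown. On chromosome 14 it was 123.5 bp and 154.5 bp, on chromosome 5 90 bp and 115 bp, on chromosome 17 77 bp and 75.5 bp, on chromosome 16 47.5 bp and 50 bp, and on chromosome 7 30 bp and 49.5 bp. Of the 77, 54 were wider in knockdown, 17 narrower and 6 equal. On chromosome 7, 16 of 18 were wider in knockdown, by a median of 7.5 bp. Among members with a mean summit of 100 or more, 60 of 85 were wider in knockdown, against 42.7% of all regions at that level. Of the 60 wider members 53 were higher in knockdown, and of the 25 others 24 were. The part of height in the widths was not tested. Over all 5 clusters covered length was 31468 bp in wild type and 29985 bp in knockdown, and the mean summit was 3370 and 4125. That mean is mostly TRG-GCC2-6, which held 69.1% of the summed summits of all 5 clusters in wild type and 65.0% in knockdown. The median summit over all members was 7 in wild type and 4.5 in knockdown.

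DICER peaks overlapped member regions in 3 of the clusters, 1 peak in each. The scores are the authors' own, and no control ChIP library was analysed here. On chromosome 5 a peak at chr5:180645145-180645361, with a score of 135.94, overlapped the valine gene region TRV-AAC1-4 (chr5:180645206-180645366), with summits of 2355 in the wild-type and 4165 in the knockdown library, 1.69-fold. On chromosome 16 a peak at chr16:3207195-3207505, with a score of 112.62, overlapped TRK-CTT3-1 and a region beside it with summits of 2 and 1. On chromosome 14 a peak at chr14:21093526-21093809, with a score of 102.99, lay wholly on TRL-TAG2-1. They ranked 48, 86 and 104 of the 119 listed peaks. No peak overlapped a member of the clusters of chromosomes 7 and 17, TRG-GCC2-6 included. Peaks that lie in a window but off its dsRNA regions were not looked for. Of the 85 members with a mean summit of 100 or more, 3 carried a peak (3.53%), against 1.61% of all regions of that level. That is too few to compare clusters. The highest region of a cluster carried no peak: the peak-bearing regions ranked 4 on chromosome 5, 10 on chromosome 16 and 4 on chromosome 14 by mean summit.

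The deposited final set of 1003 regions included 31 of the members: 11 on chromosome 7, 7 on chromosome 5, 6 on chromosome 17, 5 on chromosome 14 and 2 on chromosome 16. These were 36.5% of the 85 members with a mean summit of 100 or more, and the set holds 21.8% of all regions at that level. The set follows height: the members in it had wild-type summits of 1857 or more, and the other 54 had 1498 or less. Within 10 kb outside the windows lay 1 further region of that level beside the chromosome 7 cluster, with a mean summit of 33842, and 7 beside the chromosome 5 cluster, the highest with 12844 (mean). None lay beside the clusters of chromosomes 14, 16 and 17.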

How the data were processed

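Regions of dsRNA came from 2 libraries, wild type and Dicer knockdown, and peaks from 1 DICER ChIP library. Per the submitters' processing notes, the dsRNA data name bcl2fastq 1.8.4 and BWA 0.7, the ChIP data Bowtie 0.12.7 and MACS 1.4, and both the hg19 build. The deposited region lists give a coverage signal per region, its summit, as a whole-number height not scaled to depth, with 1003 regions repeated in a final set without values. The deposited peak list gives the authors' peak score. The calling of regions is not described in the sources used here. The workbooks attached to the dsRNA samples were identical, so wild type was taken from the sheet called normal, and knockdown from the one called induced. If that is wrong, every direction reverses. Rows were paired by row number. Depth per library is unknown. How dsRNA regions count positions (from 0 or 1) is not stated, so they are printed as deposited; peaks are printed counting from 1.

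Ratios, medians and order-statistic intervals were computed with Python 3.11.15, numpy, pandas and scipy. For names, tRNA genes of the RefSeq table (GRCh38.p14), taken from groups of small RNA genes up to 450 bp long joined at gaps of up to 100 kb, were slid along all regions whose mean summit was at least 100, allowing 10 bp of slack. A place needed 5 or more genes, and the next best place had to take no more than 0.5 times that number. The 6 gene groups had 80 of their 82 genes placed, and other places took 2 to 4. The step was tested on simulated data. The members, lists and tests were chosen with earlier results of these data known. The items named per cluster were the 5 highest, the 3 highest and 3 lowest ratios at a mean summit of 100 or more, those under a peak, copies of anticodons found in 2 or more clusters, and up to 3 without a tRNA name. Other genes named were chosen after their values were seen. Alternatives covered scaling, pseudocount, minimum summit, tolerance, overlap and the highest member.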

Additional observations from a re-analysis of the deposited data

How the results depend on the processing

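No paired analysis was possible because the libraries have no repeats. Of 225 alternative values, 143 moved little, which is no measure of stability. All 50 tRNA medians under 10 alternatives were above 0 (0.33 to 1.43), with chromosome 7 highest under each. Much of this follows from how the alternatives are built. The scalings move all log2 ratios up by nearly the same amount (0.06 unscaled, 0.49 without the highest 1%, 0.55 by the median ratio). They could therefore neither turn a median negative nor reorder the clusters. Both tolerances left every tRNA median unchanged, and the pseudocounts act little at these summits. The alternative of 1 value for each transcript number was chosen after seeing the data. Values below are in the order chromosome 7, 5, 14, 16, 17 unless named. Folds of summed summits were 1.802, 1.57, 1.29, 1.45 and 1.12 unscaled, 2.52, 2.19, 1.81, 2.03 and 1.57 by the median ratio, 2.43, 2.11, 1.74, 1.95 and 1.51 with sums that omit the highest 1%, and 1.71, 1.48, 1.29, 1.58 and 0.872 without the highest member. Median log2 ratios of tRNA gene regions were 1.43, 1.11, 0.94, 1.04 and 1.13 by the median ratio and 1.37, 1.05, 0.89, 0.99 and 1.08 without the highest 1%. Those of members with a combined summit of 20 or more were 1.29, 1.07, 0.94, 1.00 and 0.67, and 1.23, 1.02, 0.89, 0.95 and 0.61, under the same scalings. With no minimum summit they turned to -0.031 on chromosomes 7 and 5 and -0.28 on chromosome 17, and at a combined summit of 200 or a mean of 100 chromosome 17 had 0.59. Members at least 2-fold higher numbered 21, 13, 8, 9 and 11 by the median ratio, 20, 11, 8, 7 and 11 without the highest 1%, and 11 on chromosome 7 and 4 on chromosome 17 with no minimum. Members at least 2-fold lower numbered 1 on chromosome 7 and 0 on chromosome 5 under the median ratio, without the highest 1% and with a pseudocount of 10, and 5 on chromosome 17 under the median ratio. With no minimum they numbered 16, 5, 1 and 22 on chromosomes 7, 5, 16 and 17, and at a combined summit of 200 they numbered 0 on chromosomes 7, 5 and 17. Median widths at a mean summit of 100 or more were 103.5, 178.5 and 151 bp in wild type on chromosomes 7, 5 and 17, and 119, 192, 121 and 149 bp in knockdown on chromosomes 7, 5, 16 and 17. Members under a DICER peak were 0 on chromosomes 14 and 16 for peaks at or above the median score, and 1 on chromosome 16 by peak midpoint. At a mean summit of 500, 6 regions on chromosome 16 kept a tRNA name. The causes of these shifts were not tested beyond the construction of each alternative. Depth is unknown.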
